A study of Homo sapiens with 24 samples.

Results

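The second day of EZH2 inhibition was followed in the human lymphoma line KARPAS-422 (diffuse large B-cell type) by setting the 3 arrays of cells taken after 2 days with an EZH2 inhibitor at 5 uM against the 3 arrays of cells taken after 1 day with it. These 6 arrays are 6 of the 24 of the series, chosen by their titles, and all 19775 genes measured by a probe set of 1 gene symbol were compared. The series also holds inhibitor-treated cells of days 3 and 6 and DMSO-treated cells, the vehicle control, of days 2, 1, 3 and 6, with 3 arrays in each group. The label of every array gives the EZH2 genotype as Y641N, so that the DMSO cells carry the mutation as well. The submitters call the triplicates biological but do not say whether they were separate cultures. The p-values therefore measure the spread between arrays within groups, pooled for each gene over all 8 groups of the series. The series uses 1 cell line and names the inhibitor by its target alone.

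EZH2 is the methyltransferase within PRC2, a Polycomb complex that modifies histone H3 and keeps developmental and cell-type genes silent. In germinal centre B cells, from which many of these lymphomas arise, EZH2 holds back genes of differentiation and of antigen presentation. The genes described first below belong to the type I interferon response, in which sensors of foreign nucleic acid induce interferons. Their receptors signal through JAK kinases to a complex of STAT proteins and IRF9, which binds the interferon-stimulated response element in the promoters of effector genes.

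The transcript of EZH2 itself read 10.23, 10.08 and 9.97 on the inhibitor arrays of day 2 (replicates 1, 2 and 3), against 10.43, 10.33 and 10.01 on those of day 1. All levels are log2 values, so that a difference of 1 is a 2-fold change. The EZH2 difference, day 2 minus day 1, was -0.16 ± 0.12 (standard error of the fit, as for all differences given with ± below, n = 3 arrays a group, limma adjusted p = 0.67). Of the 12 measured PRC2 subunits 0 were called, against 0.93% of all genes called in either direction. At that share, few or no calls in lists this short, here and just below, say little about whether their genes changed. The B cell genes MS4A1 (12.52 to 12.70 at day 2, 12.11 to 12.46 at day 1), CD79A (means of 9.12 at day 2 and 9.03 at day 1), CD79B (10.60 and 10.66) and PAX5 (11.49 and 11.53) read well above the median probe set. Marker lists of T and NK cells averaged 5.19 to 5.26 at day 2 and 5.17 to 5.26 at day 1, with 0 of 20 called. Of their defining members CD3D read higher, at 7.05, 7.12 and 7.31 at day 2, against 6.86, 7.18 and 6.95 at day 1. CD3E, CD2 and NKG7 read 3.58 to 4.84 and 3.48 to 4.95. The list of myeloid cells averaged 4.27 to 4.33 at day 2 and 4.15 to 4.27 at day 1, with 1 of 17 called. Its member LYZ, not called, read 4.11, 5.28 and 4.65 at day 2, against 3.93, 4.08 and 3.36 at day 1. CD14, CSF1R, MPO and S100A8 read 3.56 to 5.03 and 3.60 to 4.99. The values, normalised with RMA (robust multi-array average), have no zero point, and these averages compare with a median of 4.96 to 5.03 over all probe sets of an array. In bulk RNA of this kind, fewer cells of a type and less RNA per cell cannot be told apart.

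Between day 2 and day 1 of inhibitor, limma, which fits a linear model to each gene and shares the estimate of spread across genes, called 184 of 19775 genes at an adjusted p under 0.05 (0.93%), 151 of them higher at day 2 (0.764%) and 33 lower (0.167%). Differences of at least 2-fold were found among the higher genes only, 46 in number (0.233%); the genes that fell changed by at most 0.82 on the log2 scale. At an unadjusted p under 0.05 the count was 2214 (11.2%), with 5.35% of all genes higher and 5.85% lower. For 183 of the 184 called genes the day 2 and day 1 arrays did not overlap, as they did not for 3120 of all genes (15.8%), 7.14% with day 2 above and 8.64% with day 2 below. Over all genes the median difference was -0.01, and 45.7% of the differences were above 0.

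How many genes were called depended on single arrays. Without replicate 1 of day 1, 36 genes were called higher and 6 lower. Without replicate 2 of day 1 the counts were 96 and 20, and without replicate 3 of day 1 they were 143 and 35. Without replicates 2 and 3 of day 2 in turn, 39 and 49 genes were called higher and 8 and 10 lower. Without replicate 1 of day 2 the counts were 105 and 12. A block for replicate number over all 24 arrays gave 421 higher and 253 lower. The fit to the 6 arrays alone called 55 higher and 4 lower, and the fit without the arrays numbered 2 in every group, an alternative chosen after seeing the data, called 0, with 1394 at an unadjusted p under 0.05. Of the 48 called genes that the naming rule picked, 7 stayed called whichever of the 6 arrays was left out, namely IFIT2, IFI44L, XAF1, MX2, AIM2, IFI16 and PLPP5, and no difference among the 48 changed its sign. The other 41 lost their call in 1 or more of these fits, also where this is not repeated below.

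**Figure D1:**
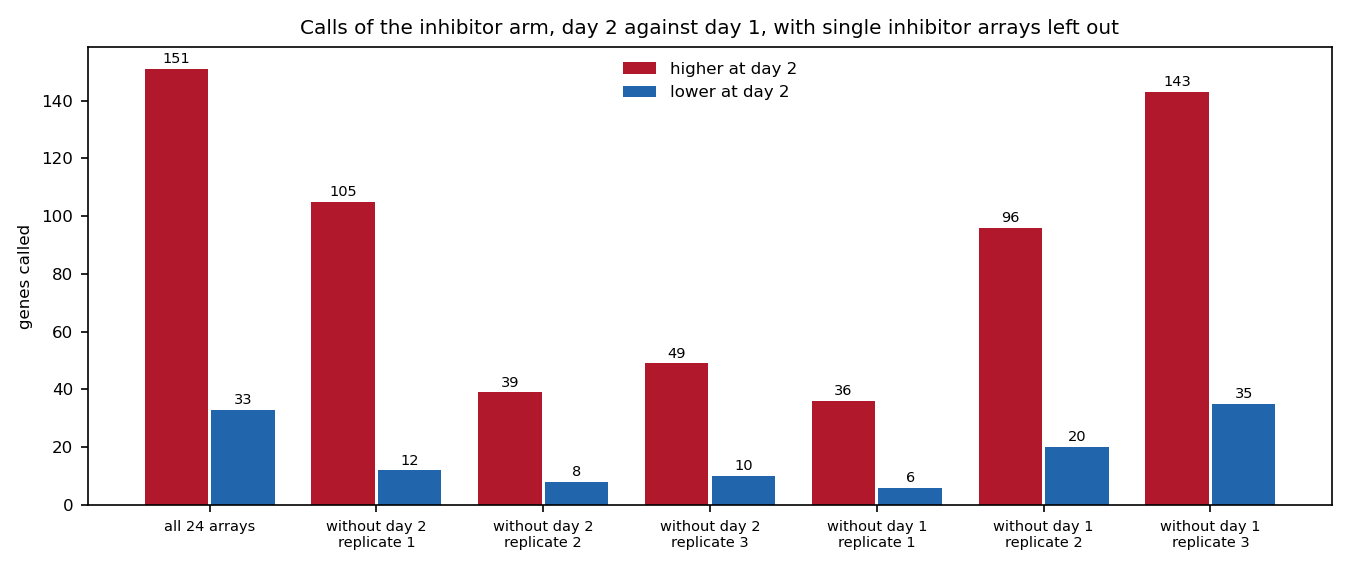
Bars give the number of genes called by limma (adjusted p under 0.05) as higher or lower at day 2 than at day 1 of inhibitor, with all 24 arrays in the fit and with each of the 6 inhibitor arrays of these days left out. The count of higher genes is 36 without replicate 1 of day 1 and 143 without replicate 3 of day 1, against 151 with all arrays.

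The effector genes of the interferon response formed the largest group of called genes among the lists described. Of 42 measured effectors, 26 rose and 0 fell, against 0.764% of all genes called higher. Their promoters are shown because the element that the STAT and IRF9 complex reads can be looked for in their letters. The promoter sequences are those of RefSeq (GRCh38.p14), from 250 bases before the start of the gene to its start, read on the strand of the gene. They belong to the 4 called effectors with the largest differences whose promoter is in the table and holds the core of that element, GAAA, any 2 bases and GAAA again, on either strand. Capitals mark that motif, which reads TTTC, any 2 bases and TTTC where it lies on the opposite strand. The promoters lie at chr10:89392373-89392622 (plus strand) for IFIT1, chr1:78620198-78620447 (plus strand) for IFI44L, chr10:89327747-89327996 (plus strand) for IFIT3 and chr1:27672193-27672442 (minus strand) for IFI6.
IFIT1: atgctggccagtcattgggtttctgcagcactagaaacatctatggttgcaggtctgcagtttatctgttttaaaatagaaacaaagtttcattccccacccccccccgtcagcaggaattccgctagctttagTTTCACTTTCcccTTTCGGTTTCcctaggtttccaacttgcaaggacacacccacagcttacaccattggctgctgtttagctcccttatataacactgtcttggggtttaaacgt
IFI44L: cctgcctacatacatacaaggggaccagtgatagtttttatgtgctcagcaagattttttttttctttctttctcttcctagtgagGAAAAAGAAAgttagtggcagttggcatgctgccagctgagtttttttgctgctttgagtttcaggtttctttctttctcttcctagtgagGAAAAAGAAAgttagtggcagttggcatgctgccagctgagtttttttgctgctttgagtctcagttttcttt
IFIT3: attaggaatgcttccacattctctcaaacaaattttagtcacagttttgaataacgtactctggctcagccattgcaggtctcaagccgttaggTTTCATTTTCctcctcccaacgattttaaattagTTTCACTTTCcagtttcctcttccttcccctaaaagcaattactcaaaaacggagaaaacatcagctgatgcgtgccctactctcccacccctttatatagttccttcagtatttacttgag
IFI6: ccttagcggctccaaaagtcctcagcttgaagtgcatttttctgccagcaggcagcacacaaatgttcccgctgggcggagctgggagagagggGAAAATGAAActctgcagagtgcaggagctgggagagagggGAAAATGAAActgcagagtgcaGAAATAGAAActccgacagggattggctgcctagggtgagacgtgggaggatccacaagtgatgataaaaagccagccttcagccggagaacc

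The motif began 116 and 103 bases before the start in IFIT1, 164 and 73 bases before it in IFI44L, 156 and 122 in IFIT3, and 156, 115 and 93 in IFI6. Over windows of 250 bases before to 50 after the start, it was found in 13 of the 19 called effectors with a promoter in the table (68.4%) and in 22 of the 34 measured effectors with one (64.7%). It was found in 996 of all 27305 promoters given by RefSeq (3.65%). Outside the effector list, 13 of 101 promoters of genes called higher held it (12.9%), and 0 of 27 promoters of genes called lower did. A match describes the letters and does not show that a factor binds there.

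IFIT1, which binds foreign RNA caps and blocks their translation, read 10.04, 10.79 and 11.13 at day 2 of inhibitor, against 7.45, 8.51 and 9.34 at day 1. The lowest day 2 array stood above the highest day 1 array, and within both days replicate 1 was the lowest and replicate 3 the highest. The standard deviation was 0.56 at day 2 and 0.95 at day 1, and 0.12 to 0.66 in the other groups of the fit. IFIT1 rose by 2.22 ± 0.40, or 4.67-fold (adjusted p = 0.0087), the largest difference among the called genes; its call was lost without replicate 1 of day 1, replicate 2 of day 2 or replicate 3 of day 2 (highest adjusted p 0.076).

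IFI44L, a cytoplasmic protein induced by interferon, read 9.73, 9.98 and 10.02 at day 2, against 7.16, 7.99 and 8.57 at day 1. The day 2 arrays lay close together and the day 1 arrays were spread over more than 1 log2 unit, again with replicate 1 lowest. IFI44L rose by 2.00 ± 0.30 (adjusted p = 0.0019). IFIT2, a relative of IFIT1 from the same gene cluster on chromosome 10, read 8.41, 8.75 and 9.09 at day 2, against 6.12, 6.75 and 7.48 at day 1. No day 2 array came near the day 1 arrays, and IFIT2 rose by 1.97 ± 0.27 (adjusted p = 0.00096).

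XAF1, an interferon-induced antagonist of the apoptosis inhibitor XIAP, rose by 1.93 ± 0.30 (means of 9.75 at day 2 and 7.81 at day 1; adjusted p = 0.0022), and its other 2 probe sets gave 2.15 and 2.23. IFIT3, which stabilises IFIT1 on RNA, rose by 1.81 ± 0.32 and MX2, a dynamin-like GTPase that restricts lentiviruses, by 1.73 ± 0.26. OAS2, which makes the oligoadenylate that switches on RNase L, rose by 1.75 ± 0.38 and HERC6, of the HERC ubiquitin ligase family, by 1.72 ± 0.38. OAS2 and HERC6 each lost their call in 4 of the 6 fits without 1 array, and the other probe set of HERC6 gave -0.07. IFI6, a mitochondrial protein that counters apoptosis, read 12.82, 12.62 and 13.00 at day 2, against 10.33, 11.41 and 11.99 at day 1, and rose by 1.57 ± 0.32. The call of IFI6 was likewise lost in 4 of the 6 fits without 1 array, and that of IFIT3 in 2.

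**Figure D2:**
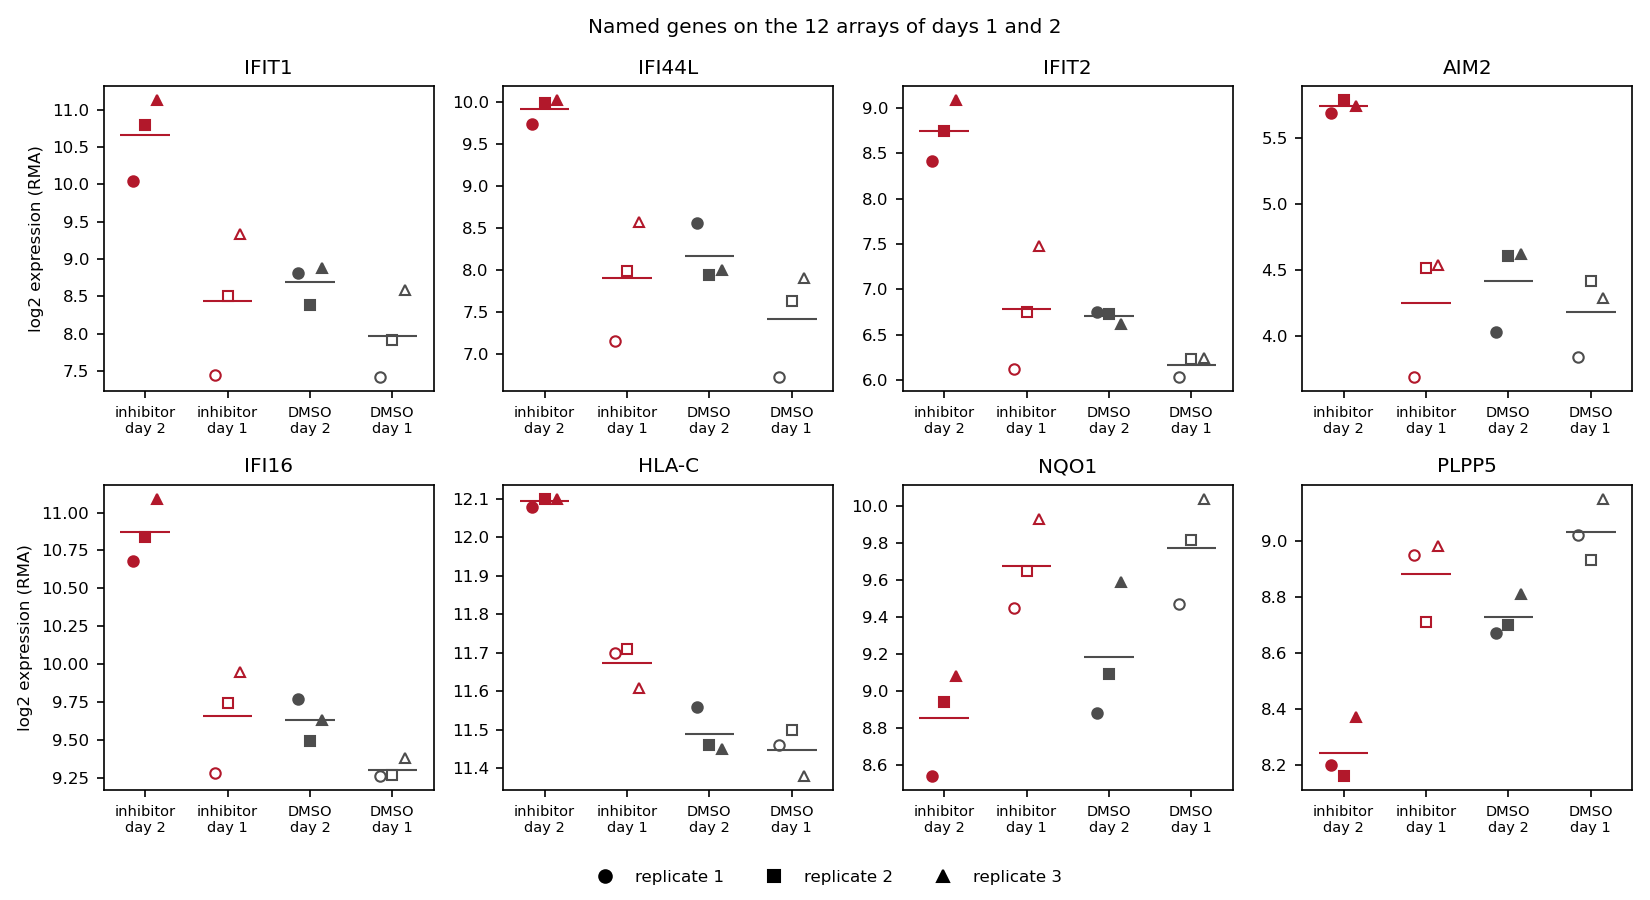
Each panel shows 1 gene on the 12 arrays of days 2 and 1 as log2 expression, with inhibitor arrays in red and DMSO arrays in grey, filled at day 2 and open at day 1, marker shapes for the replicate number and a line at the group mean. The day 2 inhibitor arrays stand above the day 1 inhibitor arrays for IFIT1, IFI44L, IFIT2, AIM2, IFI16 and HLA-C, and below them for NQO1 and PLPP5.

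Across the 42 effectors the median difference was 1.10, against -0.01 over all genes. The difference was above 0 for 41 of them, and for 37 all 3 day 2 arrays stood above all 3 day 1 arrays, against 7.14% of all genes. Effectors that were not called included some of the best known: ISG15, the ubiquitin-like modifier, differed by 0.96 ± 0.26 (adjusted p = 0.089), MX1, a GTPase that blocks influenza virus, by 1.04 ± 0.30 (adjusted p = 0.12) and IFI27 by 2.06 ± 0.68 (adjusted p = 0.18), all 3 named after their values were seen, as were the further genes below that are given as not called, cell type markers aside. IFI27 read 7.64, 8.22 and 10.04 at day 2, against 5.51, 6.70 and 7.5 at day 1, so that its groups did not overlap, and replicate 3 of day 2 stood far above the other arrays. HERC5, a ligase that attaches ISG15, averaged 3.32 on both days and read 3.21 to 3.41 at day 2 and 3.20 to 3.46 at day 1. These HERC5 values lay below the median probe set of an array (4.96 to 5.03), where a change may not show. The number of effectors called higher was 7, 17 and 34 without replicates 1, 2 and 3 of day 1 in turn. It was 22, 8 and 9 without replicates 1, 2 and 3 of day 2, and 9 with the 6 arrays alone. A block for replicate number gave 39 over all 24 arrays and 35 over the 6, and array weights gave 38. Leaving out all arrays numbered 1, 2 or 3 gave 20, 0 and 16.

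The mean of the 42 effectors was 9.70, 9.97 and 10.19 on the inhibitor arrays of day 2, against 8.32, 8.86 and 9.28 on those of day 1. DMSO arrays gave 9.05, 8.77 and 8.95 at day 2, against 8.24, 8.55 and 8.84 at day 1. On day 1 replicate 1 was thus the lowest of its group in both arms, and the inhibitor arrays of day 1 overlapped the DMSO arrays of both days. The inhibitor arrays of day 2 stood above all other 9 arrays of days 2 and 1. In order of time, the group means of the list in the inhibitor arm were 8.82, 9.95, 10.70 and 11.21 at days 1, 2, 3 and 6, and those in the DMSO arm 8.54, 8.92, 9.0 and 8.92.

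**Figure D3:**
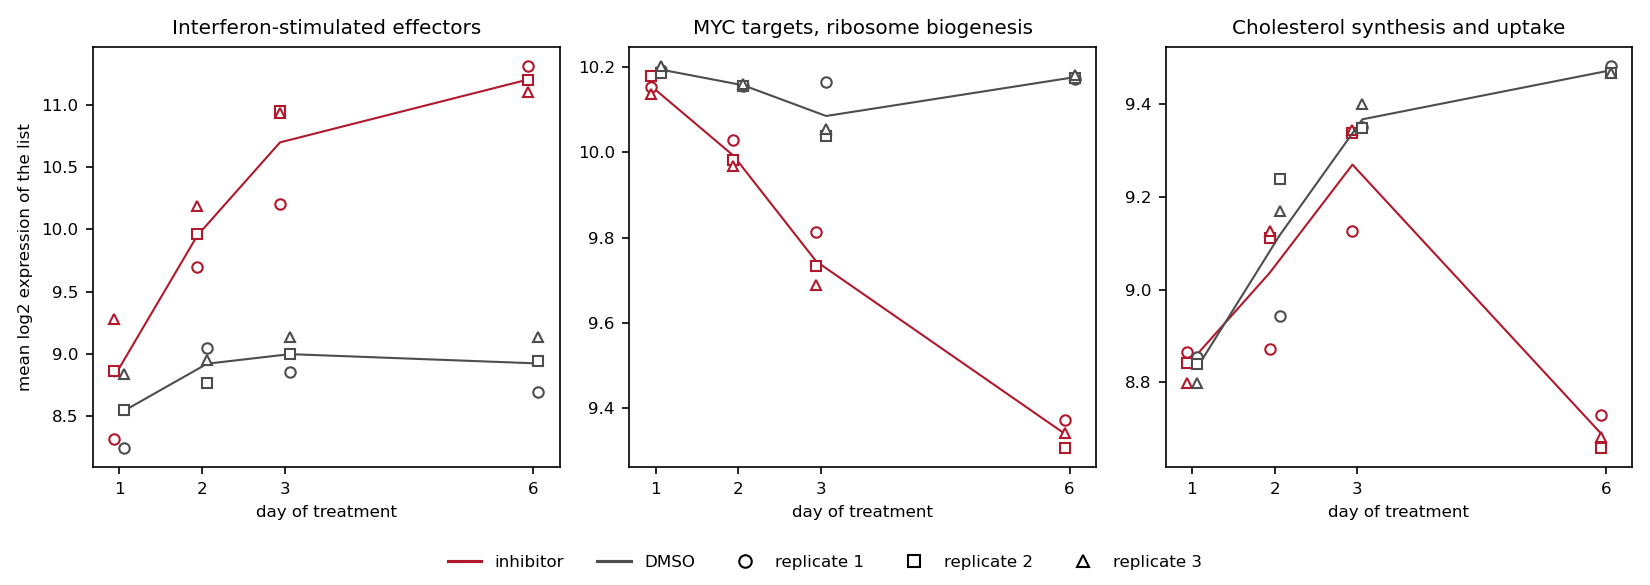
Markers give the mean log2 expression of a gene list on each array and lines join the group means, for inhibitor (red) and DMSO (grey) at days 1, 2, 3 and 6. For the interferon-stimulated effectors the inhibitor arrays of day 2 (9.70 to 10.19) lie above those of day 1 (8.32 to 9.28), for the MYC and ribosome list they lie below them, and for the cholesterol list the arrays of both arms overlap at days 1 and 2.

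Among the sensors of nucleic acid and their adaptors, 6 of 19 rose and 0 fell, against 0.764% of all genes called higher, while the median difference of 0.08 lay near that of all genes. IFIH1 (MDA5), the sensor of long double-stranded RNA, read 6.17, 7.03 and 6.01 at day 2, against 4.41, 4.93 and 4.91 at day 1, with replicate 2 the highest on both days. It rose by 1.65 ± 0.29 (adjusted p = 0.0075), a call lost in 2 of the 6 fits without 1 array, and its other 2 probe sets gave 0.42 and 0.58. AIM2, which senses cytosolic DNA and assembles an inflammasome, read 5.69, 5.79 and 5.74 at day 2, against 3.69, 4.52 and 4.54 at day 1. Its day 2 arrays were nearly equal and all above day 1, and AIM2 rose by 1.49 ± 0.24 (adjusted p = 0.0035).

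IFI16, a nuclear sensor of DNA, read 10.68, 10.84 and 11.09 at day 2, against 9.28, 9.74 and 9.95 at day 1. It rose by 1.21 ± 0.16 (adjusted p = 0.00056), and its other 2 probe sets gave 1.17 and 1.85. TLR7, the endosomal receptor for single-stranded RNA, rose by 1.42 ± 0.27 (adjusted p = 0.013), a call that 3 of the 6 fits without 1 array lost. The remaining called members were TRIM25, a ligase that activates RIG-I, at 0.73 ± 0.16, and ADAR, which edits double-stranded RNA, at 0.44 ± 0.11 (adjusted p = 0.049). RIGI itself differed by 0.88 ± 0.23 (adjusted p = 0.082), whereas MAVS, the mitochondrial adaptor, and CGAS, the maker of cyclic GMP-AMP, both differed by 0.05 (adjusted p = 0.90 and 0.96). TLR9, the receptor for unmethylated DNA that B cells carry, differed by 0.08 ± 0.15.

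No gene of the interferons, their receptors, kinases and regulatory factors was called, of 22 measured, against 0.93% of all genes. At an unadjusted p under 0.05, 5 were higher and 1 lower, against 5.35% and 5.85% of all genes. IFNB1, which encodes interferon beta, read 4.21, 4.48 and 4.32 at day 2, against 3.84, 4.10 and 4.38 at day 1, and the groups overlapped (0.23 ± 0.28, adjusted p = 0.84). IFNA1 read 2.24 to 2.30 at day 2, against 2.24 to 2.42 at day 1, near the lowest value on any array, 1.72. IFNB1 also lay below the median probe set of an array, 4.96 to 5.03. At levels this low a change may not show. IRF7, the factor that amplifies interferon production, read 8.56, 9.06 and 9.29 at day 2, against 7.0, 7.87 and 8.54 at day 1. Its groups were barely apart, at 8.56 and 8.54, and the difference of 1.16 ± 0.30 was not called (adjusted p = 0.076). IRF9 differed by 0.74 ± 0.27 (adjusted p = 0.25), SOCS1, a feedback inhibitor of JAK kinases, by 0.76 ± 0.21 (adjusted p = 0.092) and JAK1 by 0.15 ± 0.09.

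Antigen presentation on MHC class I was the next list by count: 4 of 19 genes rose and 0 fell, against 0.764% of all genes called higher, with a median of 0.22. HLA-C read 12.08, 12.10 and 12.10 at day 2, against 11.70, 11.71 and 11.61 at day 1, both groups being tight, and rose by 0.42 ± 0.08 (adjusted p = 0.0093). HLA-B rose by 0.55 ± 0.12 (12.60, 12.85 and 12.89 at day 2, against 12.14, 12.27 and 12.28 at day 1), HLA-E by 0.55 ± 0.12 and TAP1, a subunit of the peptide transporter, by 0.47 ± 0.09. HLA-B and HLA-E each lost their call in 4 of the 6 fits without 1 array, TAP1 in 3 and HLA-C in 1. With the mean of the probe sets of a gene, HLA-B and HLA-C were not called. The class I heavy chain genes are close in sequence, so that their probe sets may share signal. B2M, the light chain, differed by 0.11 ± 0.06 (adjusted p = 0.54) and NLRC5, the transactivator of class I genes, by 0.22 ± 0.21. Of 14 class II genes HLA-DOA, a modulator of peptide loading in B cells, rose by 0.42 ± 0.10 (adjusted p = 0.04). Of its other 4 probe sets 2 had the opposite sign, and the call was lost whichever of the 6 arrays was left out. CIITA, the class II transactivator, differed by 0.52 ± 0.14 (adjusted p = 0.073) and CD74, the invariant chain, by 0.25 ± 0.06 (adjusted p = 0.062).

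Genes of B cell identity and of the germinal centre gave 1 call each, both higher, against 0.764% of all genes. CD86, a ligand for CD28 on activated B cells, read 7.0, 7.37 and 7.22 at day 2, against 5.69, 6.56 and 6.56 at day 1, and rose by 0.92 ± 0.19 (adjusted p = 0.02; 1 of 26 genes of the B lineage list). BACH2, a repressor that holds B cells back from the plasma cell fate, read 7.09, 6.84 and 6.92 at day 2, against 5.69, 6.02 and 6.51 at day 1, and rose by 0.88 ± 0.17 (adjusted p = 0.013; 1 of 23 germinal centre genes). Of 18 plasma cell genes 0 were called; JCHAIN, which joins IgM and IgA chains, differed by 0.93 ± 0.35 (adjusted p = 0.26). The lymphotoxin gene LTA and TNF, both targets of NF-kB, differed by -0.80 ± 0.22 and -0.96 ± 0.33, neither called (adjusted p = 0.11 and 0.21), among 21 NF-kB genes of which 0 were.

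Developmental transcription factors of the kind that Polycomb silences were called higher in 2 of 58 cases, against 0.764% of all genes, with a median of 0.03. MEIS1, a homeobox partner of HOX proteins, read 6.21, 6.48 and 5.97 at day 2, against 5.32, 5.38 and 4.70 at day 1, with replicate 3 lowest on both days, and rose by 1.08 ± 0.21 (adjusted p = 0.012). SNAI2, a zinc finger repressor of epithelial genes, rose by 0.50 ± 0.10 (10.22 to 10.38 at day 2, 9.70 to 9.88 at day 1). ID2, an inhibitor of helix-loop-helix factors, read 7.84, 8.34 and 8.27 at day 2, against 7.19, 7.22 and 7.82 at day 1, and its difference of 0.74 ± 0.26 was not called (adjusted p = 0.23).

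Several other lists held a single gene that rose, against 0.764% of all genes. SMAD5, a signal transducer of bone morphogenetic proteins, rose by 0.35 ± 0.07 (1 of 22), SPRED2, an inhibitor of RAS signalling, by 0.59 ± 0.12 (1 of 29) and TP53INP1, a stress protein induced by p53, by 0.72 ± 0.13 (1 of 21). BAG3, a co-chaperone of HSP70 proteins, rose by 0.66 ± 0.14 (1 of 13). PECAM1, an adhesion receptor, rose by 1.32 ± 0.25 (6.38, 7.02 and 6.88 at day 2, against 4.87, 5.43 and 6.04 at day 1; 1 of 27) and ECI2, an isomerase of fatty acid oxidation, by 0.85 ± 0.19 (1 of 22). MPEG1, a pore-forming protein of macrophages that B cells also express, rose by 0.94 ± 0.22, with 1 of 17 myeloid markers called. DCN, the collagen-binding proteoglycan decorin, rose by 0.62 ± 0.13 (13.14, 13.28 and 13.35 at day 2, against 12.37, 12.66 and 12.87 at day 1), as the 1 gene called of 16 stromal, endothelial and epithelial markers. All 6 other probe sets of DCN had the same sign. COL1A1, COL1A2, VWF, EPCAM and KRT19, which define that list, had differences between -0.15 and 0.09, none called, and the list averaged 4.99 to 5.13 at day 2 and 5.0 to 5.05 at day 1. The part of other cell types in these 2 calls was not tested.

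**Figure D4:**
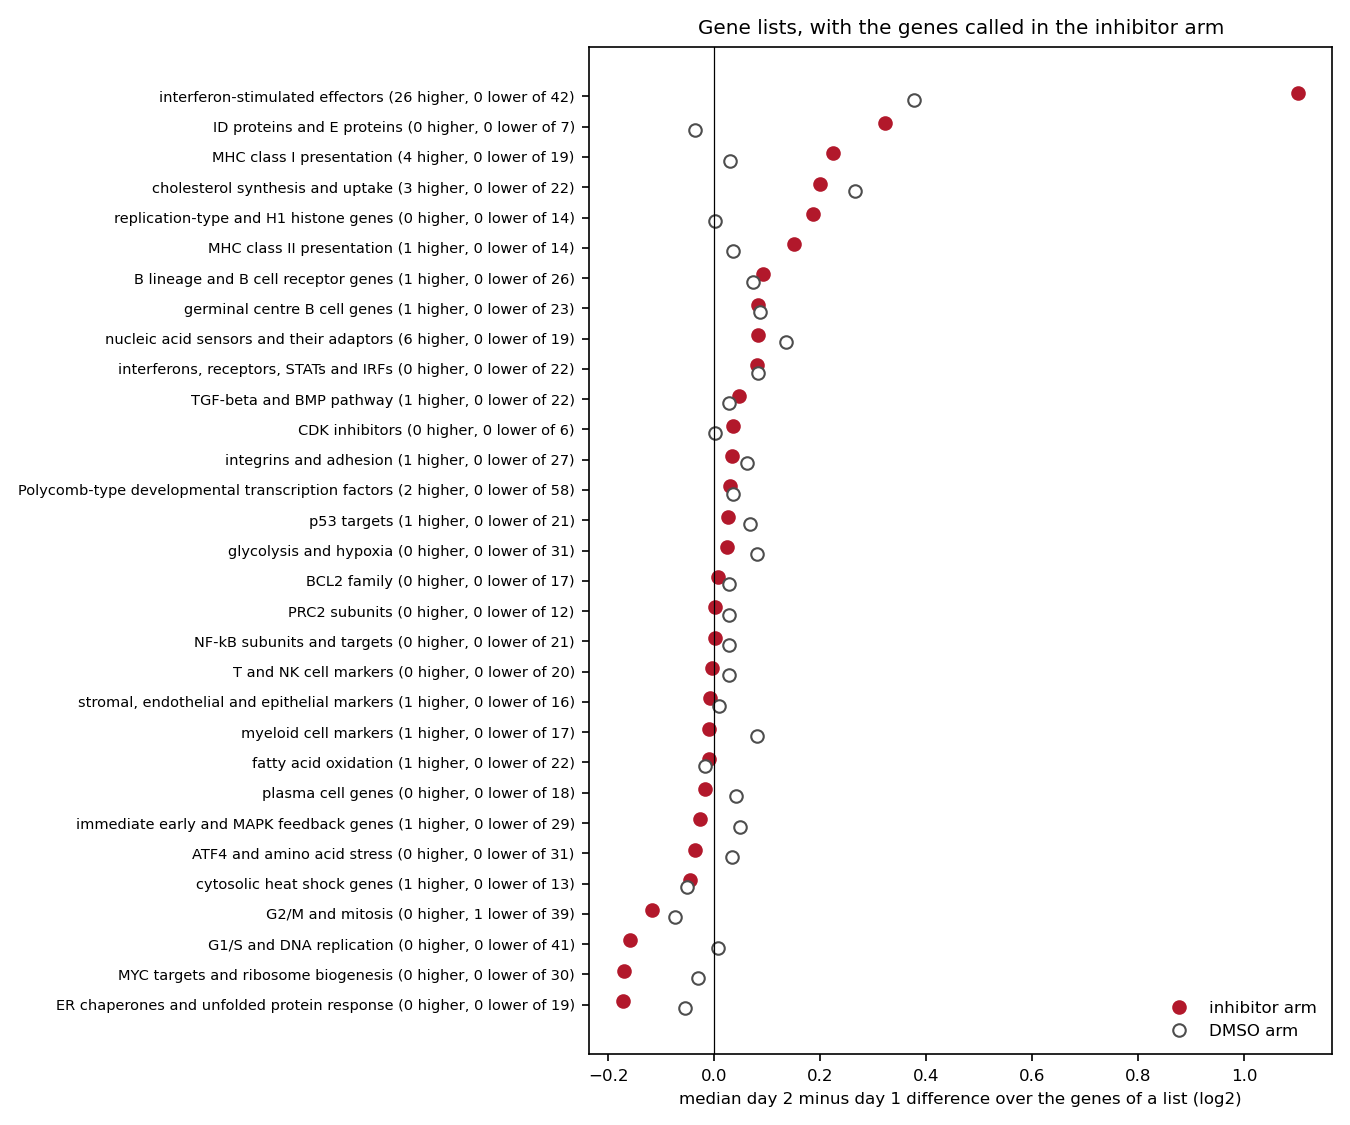
Points give the median difference, day 2 minus day 1, over the measured genes of each of 31 lists in the inhibitor arm (red, filled) and in the DMSO arm (grey, open), with the number of genes called in the inhibitor arm beside the name of the list. The interferon-stimulated effectors stand at 1.10 in the inhibitor arm and 0.38 in the DMSO arm, and the median of every other list lies between -0.17 and 0.32 in the inhibitor arm.

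Outside the lists, LGALS3BP, a secreted glycoprotein that binds galectins, rose by 1.65 ± 0.34 (6.31, 6.90 and 7.34 at day 2, against 5.06, 5.02 and 5.55 at day 1) and PDZRN4, a protein with PDZ and RING domains, by 1.57 ± 0.28. In DMSO LGALS3BP and PDZRN4 differed by 0.25 and 0.70 over the same day, neither called. The smallest adjusted p of the inhibitor comparison belonged to SLC25A43, a carrier of the inner mitochondrial membrane. This gene was chosen after its values were seen, as were the genes that follow in this paragraph. It read 6.67, 6.91 and 6.62 at day 2, against 5.72, 5.53 and 5.65 at day 1, and rose by 1.10 ± 0.11 (adjusted p = 2.4e-05). SETBP1, a SET-binding protein, rose by 1.20 ± 0.14 (adjusted p = 0.00029) and ABAT, which breaks down the transmitter GABA, by 1.27 ± 0.16 (7.45, 7.30 and 7.31 at day 2, against 5.76, 6.13 and 6.36 at day 1; adjusted p = 0.00056). CTSO, a cysteine protease, rose by 1.28 ± 0.18, the argonaute gene AGO4 by 0.91 ± 0.12 and RIN2, an exchange factor for RAB5 proteins, by 1.40 ± 0.23, RIN2 reading 4.57, 5.47 and 5.12 at day 2, against 3.54, 3.71 and 3.70 at day 1. SPP1, the secreted phosphoprotein osteopontin, rose by 1.54 ± 0.32, but its other probe set gave -0.11.

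The 33 genes that fell did so by small amounts. For 32 of them the DMSO difference over the same day was below 0 as well, with a median of -0.149 against -0.378 with inhibitor. Over all genes 53.8% of the DMSO differences were above 0. NQO1, a quinone reductase induced by oxidative stress, read 8.54, 8.94 and 9.08 at day 2, against 9.45, 9.65 and 9.93 at day 1. It fell by 0.82 ± 0.18 (adjusted p = 0.023), a call that 4 of the 6 fits without 1 array lost. Both other probe sets of NQO1 were lower too (-0.75 and -0.65). In DMSO it differed by -0.59 over the same day, which was not called. HEG1, a transmembrane receptor of endothelial junctions, fell by 0.82 ± 0.20 (10.72, 10.99 and 10.67 at day 2, against 11.68, 11.55 and 11.61 at day 1), a call lost whichever of the 6 arrays was left out; its other probe set gave -0.08. PLPP5, a lipid phosphatase, read 8.20, 8.16 and 8.37 at day 2, against 8.95, 8.71 and 8.98 at day 1. Its groups did not overlap, and it fell by 0.64 ± 0.08 (adjusted p = 0.00069), with its other 3 probe sets between -0.56 and -0.39.

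IFT56, a part of the transport machinery of cilia, fell by 0.59 ± 0.11, the long non-coding RNA DLEU1 by 0.48 ± 0.08 (8.53, 8.40 and 8.39 at day 2, against 8.98, 8.93 and 8.86 at day 1) and DUS4L, a tRNA dihydrouridine synthase, by 0.47 ± 0.09. CHAC2, which breaks down glutathione, fell by 0.47 ± 0.10 and AIFM2, an oxidoreductase that guards membranes against lipid peroxidation, by 0.43 ± 0.08. GCLM, a subunit of the enzyme that starts glutathione synthesis, was chosen after its values were seen and fell by 0.32 ± 0.07 (9.68, 9.78 and 9.80 at day 2, against 10.05, 10.03 and 10.15 at day 1). FKBP7, a prolyl isomerase of the endoplasmic reticulum, fell by 0.43 ± 0.09, CENPM, a centromere protein, by 0.42 ± 0.10 and DPH6, an enzyme of diphthamide synthesis, by 0.42 ± 0.08. The antisense RNA RAMP2-AS1 fell by 0.45 ± 0.09 at a low level (3.86 to 4.03 at day 2, 4.19 to 4.51 at day 1). In DMSO the genes of this paragraph differed by -0.33 (DPH6) to 0.01 (RAMP2-AS1) over the same day, none called.

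The 2 lists of cell division genes had mostly small differences below 0, and 1 of their members was called, against 0.167% of all genes called lower. Of 41 genes of G1/S and DNA replication, 40 had a difference below 0 and the median was -0.16, against -0.01 over all genes, but 0 were called, and 11 were lower at an unadjusted p under 0.05, against 5.85% of all genes. CDC45, a part of the replicative helicase, differed by -0.32 ± 0.09 (adjusted p = 0.13). For 11 of the 41 all day 2 arrays lay below day 1, against 8.64% of all genes. CDC20, an activator of the anaphase-promoting complex, was the 1 gene called of 39 of G2/M and mitosis. It read 11.43, 11.43 and 11.46 at day 2, against 11.85, 11.77 and 11.76 at day 1, and fell by 0.35. Its adjusted p only just passed and failed whichever of the 6 arrays was left out. In DMSO CDC20 differed by -0.24. The G2/M list had 29 of 39 genes below 0 in DMSO, with a median of -0.075 against -0.118 with inhibitor. Of all genes 53.8% were above 0 in DMSO. The G1/S list had a DMSO median of 0.007.

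All 30 MYC targets and ribosome biogenesis genes measured had a difference below 0, with a median of -0.17. Of them 0 were called, against 0.167% of all genes called lower, and 7 were lower at an unadjusted p under 0.05, against 5.85% of all genes. For 14 of them all day 2 arrays lay below day 1, against 8.64% of all genes. The list averaged 10.03, 9.98 and 9.97 on the day 2 inhibitor arrays, against 10.15, 10.18 and 10.14 on those of day 1. The 3 further factors of ribosome assembly, EMG1, RRP15 and TBL3, chosen after their values were seen, fell by 0.36 ± 0.07, 0.35 ± 0.08 and 0.40 ± 0.08. The ER chaperones had a median of -0.17, with 15 of 19 below 0 and 0 called. In DMSO their median was -0.055, with 16 of 19 below 0. The MYC and ribosome list had a DMSO median of -0.031, with 21 of 30 below 0. Of all genes 53.8% had a DMSO difference above 0.

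The cholesterol list gave 3 calls of 22 in the inhibitor arm, all higher, against 0.764% of all genes. They were INSIG1, SCD and SREBF1, and the same 3 genes were the only ones called higher over the same day in DMSO. INSIG1, which retains the sterol sensor in the endoplasmic reticulum, read 10.05, 10.33 and 10.38 at day 2 of inhibitor, against 9.86, 9.54 and 9.59 at day 1, and rose by 0.59 ± 0.12 (adjusted p = 0.022). In DMSO it read 10.03, 10.47 and 10.18 at day 2, against 9.55, 9.45 and 9.23 at day 1, and rose by 0.81 ± 0.12 (adjusted p = 0.018). SCD, the stearoyl-CoA desaturase, rose by 0.48 ± 0.11 with inhibitor and by 0.65 ± 0.11 in DMSO, and SREBF1, a transcription factor of lipid synthesis, by 0.45 ± 0.11 and 0.64 ± 0.11. The median of the list was 0.20 with inhibitor and 0.26 in DMSO.

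In DMSO cells limma called 5 genes between day 2 and day 1 (0.0253%). In all, 929 had an unadjusted p under 0.05 (4.7%). Besides the 3 lipid genes, the genes called were C11orf65 and C12orf60, which fell by 1.01 ± 0.16 and 0.73 ± 0.11. In the inhibitor arm they differed by -0.39 ± 0.16 and -0.22 ± 0.11, neither called. Without 1 array, 0 genes were called higher when replicate 2 or 3 of day 2 or replicate 1 or 3 of day 1 was left out. The count was 0 lower without replicate 1 or 3 of day 2 or replicate 1 or 3 of day 1. Blocking on replicate number gave 4 calls higher and 3 lower over all 24 arrays, and 0 and 0 over the 6 DMSO arrays alone (1456 at an unadjusted p under 0.05). Of the effectors 0 were called in DMSO, with a median of 0.38 and 8 of 42 higher at an unadjusted p under 0.05, against 2.8% of all genes. IFI6 read 12.32, 11.42 and 11.95 at day 2 of DMSO, against 10.14, 10.82 and 11.29 at day 1 (1.14 ± 0.32, adjusted p = 0.88). IFIT1 read 8.82, 8.39 and 8.88 at day 2, against 7.42, 7.92 and 8.59 at day 1 (0.72 ± 0.40, adjusted p = 1). In both genes replicate 1 of day 1 was the lowest DMSO array; the groups did not overlap for IFI6 and overlapped for IFIT1.

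Whether a change over the second day differed between the arms was tested as the inhibitor difference minus the DMSO difference, and limma called 0 of 19775 genes (0.0%). Blocking on replicate number, 6 genes were called higher and 1 lower over all 24 arrays, and 3 higher and 1 lower over the 12 arrays compared. At an unadjusted p under 0.05 there were 881 (4.46%), and the smallest adjusted p was 0.15, for ICAM4, a blood group adhesion molecule. ICAM4, chosen after its values were seen, rose by 0.34 ± 0.07 with inhibitor (4.0, 4.16 and 4.09 at day 2, against 3.63, 3.83 and 3.78 at day 1) and differed by -0.24 ± 0.07 in DMSO. For the effectors the difference between the arms was above 0 in 42 of 42, against 43.2% of all genes, with a median of 0.71, and 20 were higher at an unadjusted p under 0.05, against 2.15% of all genes. The 95% interval of the difference between the arms was 0.63 to 2.25 for IFIT2, 0.32 to 2.69 for IFIT1 and -0.53 to 1.38 for IFI6. Intervals for ABAT (0.64 to 1.60), SLC25A43 (0.45 to 1.09) and CTSO (0.62 to 1.70) lay above 0, with an adjusted p of 0.44 for each.

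Of the 151 genes called higher with inhibitor, 134 also had a DMSO difference above 0, against 53.8% of all genes. The medians of the 151 were 0.73 with inhibitor and 0.20 in DMSO. Likewise 32 of the 33 called lower had a DMSO difference below 0, with medians of -0.38 and -0.15. The inhibitor difference exceeded the DMSO difference in 148 of the 151, all but INSIG1, SCD and SREBF1. Since the genes were selected on the inhibitor difference, these counts describe them and test nothing. Among genes chosen after their values were seen, IFITM3, which blocks viral fusion, rose by 0.66 ± 0.13 with inhibitor and differed by -0.18 in DMSO, and CARD16, a caspase recruitment protein, rose by 0.89 ± 0.20 with inhibitor and differed by -0.41 in DMSO.

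**Figure D5:**
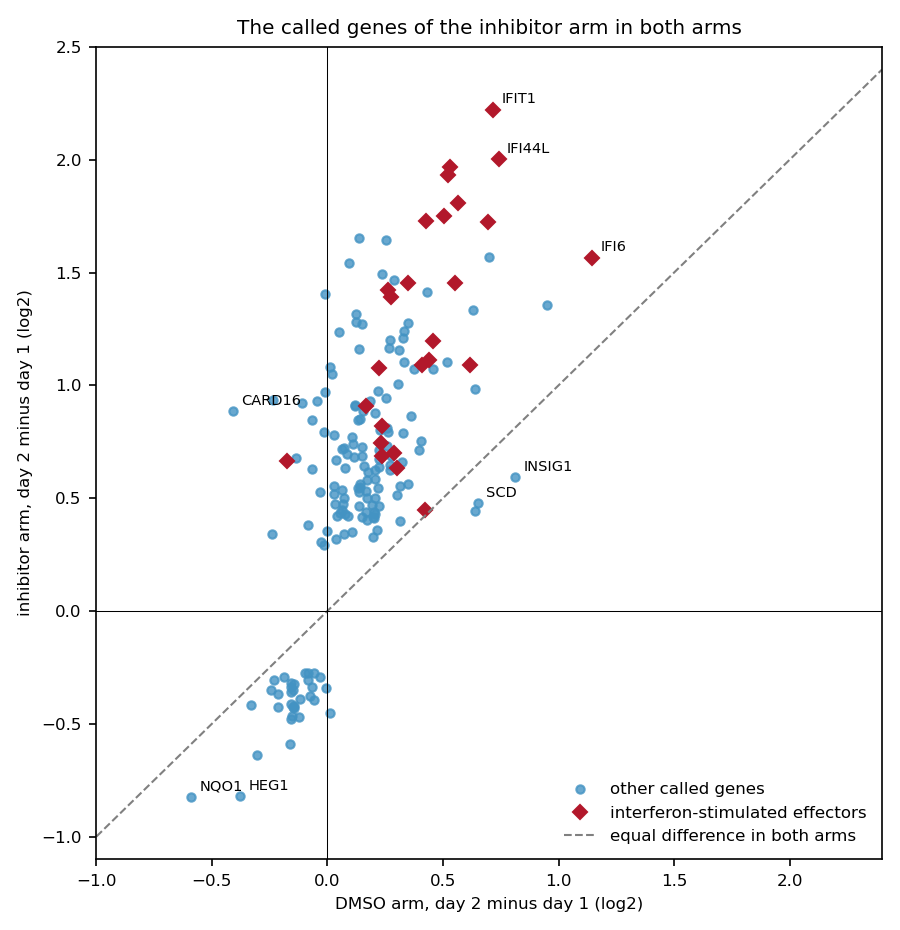
Each of the 184 genes called between day 2 and day 1 of inhibitor is placed by its log2 difference in the inhibitor arm (vertical axis) and in the DMSO arm (horizontal axis), with the interferon-stimulated effectors as red diamonds and a dashed line where both arms would be equal. The effectors reach 2.22 with inhibitor and 1.14 in DMSO, and INSIG1, SCD and SREBF1 lie under the line.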

How the data were processed

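RNA of each sample was hybridised to 1 single-colour Affymetrix array. The deposited values, 54613 probe sets on 24 arrays, are expression on a log scale; the submitters' processing notes name RMA and R 2.10.1 as their source; the log base is not stated, and the range of 1.72 to 14.33 was read as log2 as the authors deposited it. Scanner files were not used here, so that no filter on background was possible, and the number of arrays limits the precision. Of the probe sets, 41091 have 1 gene symbol in the platform annotation, 1801 several and 11721 none; 41037 symbols were updated by gene ID, and each of 19775 genes was represented by its probe set of highest average.

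One limma model (version 3.58.1, R 4.3.3; lmFit and eBayes) with a mean for each of the 8 groups gave the day 2 minus day 1 difference with inhibitor, the same in DMSO, and the difference between them, with Benjamini-Hochberg adjustment over all genes and calls at an adjusted p under 0.05. The procedure was tested on simulated data with independent noise and the same spread in every group. That test does not cover correlated arrays or unequal spreads. Equal replicate numbers are not said to mark a shared culture or day. The correlations of deviations from the group means did not settle whether they pair the days. In DMSO, replicate 1 of day 2 correlated at 0.175 with replicate 1 of day 1 and at 0.239 with replicate 2. Between the inhibitor days, same-numbered replicates 1 and 3 correlated at 0.322 and 0.4, and replicates 2 at -0.035. Named genes are the 12 highest and 12 lowest called differences without overlap between the days, EZH2, up to 4 called members of each of 31 gene lists, the defining members of lists with none, and the genes called in DMSO. Other genes, those given as not called included, were chosen after their values were seen. The comparison and the lists were chosen with earlier results of these data known. Promoters are RefSeq's (GRCh38.p14). The alternatives were the 6 arrays alone, replicate numbers as a block, probe-set means, a filter on dim genes, 2 further scalings, array weights, an intensity trend with a robust prior, and leaving out arrays.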

Additional observations from a re-analysis of the deposited data

How the results depend on the processing

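The named differences with inhibitor kept their sign under every alternative run, but the counts of calls moved. Leaving out 1 array of the groups compared gave 36 to 143 genes higher and 6 to 35 lower with inhibitor, 7 to 34 effectors higher, 0 to 3 higher and 0 to 2 lower in DMSO, and 0 between the arms. The 6 arrays alone gave 55 higher, 4 lower and 9 effectors, and DMSO arrays alone gave 0 higher and 0 lower (814 at an unadjusted p under 0.05). Array weights gave 232 higher and 101 lower, and 1 higher between the arms. Without the dimmest 40 percent of genes 75 were lower. Probe-set means gave 0 higher and 0 lower in DMSO (898 unadjusted). Deviations from the group means of arrays with the same number (1, 2 and 3) correlated between the days at 0.322, -0.035 and 0.4 with inhibitor and at 0.175, 0.231 and 0.494 in DMSO, and between the arms at 0.358, 0.043 and 0.428 on day 2 and 0.426, 0.235 and 0.554 on day 1. Same-numbered pairs were all over 0.1 between the DMSO days and between the arms on day 1. They were not all over 0.1 between the inhibitor days or between the arms on day 2. Arrays of different number correlated at -0.362 to 0.239 between the DMSO days and at -0.422 to 0.18 between the inhibitor days. With a block for replicate number over all 24 arrays, 421 genes were higher and 253 lower with inhibitor, and 6 higher and 1 lower between the arms; the block on the arrays compared gave 294 and 21 with inhibitor, 0 and 0 in DMSO (1456 unadjusted), and 3 and 1 between the arms. Leaving out all arrays of 1 number was chosen after seeing the data. Without those numbered 1, 77 were higher and 5 lower with inhibitor, 1 higher and 0 lower in DMSO, and 2 higher between the arms. Without those numbered 2, 0 were higher and 0 lower with inhibitor, effectors included (1394 unadjusted), and 0 and 0 in DMSO (762 unadjusted). Without those numbered 3, 59 were higher, 3 lower and 16 effectors higher with inhibitor, and 0 and 0 in DMSO (678 unadjusted). These fits have fewer arrays and fewer residual degrees of freedom than the main fit. Why the counts differ between the numbers was not tested.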
